A study of Mus musculus with 4 samples.

Results

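Branched-chain amino acid (BCAA) breakdown was described here through 29 genes, measured in the subcutaneous adipose tissue (SAT) of mice with or without *Napepld* in adipocytes. The 29 were given as a list and cover uptake of the amino acids, transamination, the branched-chain ketoacid dehydrogenase (BCKDH) complex, the enzymes downstream to propionyl-CoA, and ketone use. All 29 were among the 19938 genes named on the Affymetrix MoGene 1.0 ST array, 28 of them through 1 probe set and *Hibadh* through 2. NAPE-PLD, the product of *Napepld*, makes *N*-acylethanolamines, lipid mediators related to the endocannabinoids. The groups were cKO-HFD, WT-HFD, cKO-CT and WT-CT. All mice were C57Bl6, male according to the study's methods, and carried NAPE PLD lox/lox alleles. The cKO mice also carried AP2 Cre, a recombinase driven by the *Fabp4* promoter, which is active in adipocytes and can be active in some other cells such as macrophages, whereas WT mice had the floxed alleles without Cre. The HFD groups ate a high fat diet and the CT groups a control diet for 8 weeks, to an age of 16 weeks. RNA of 4 to 5 mice by the labels (5 by the study's methods), chosen for RNA quality, was pooled for each group and run on 1 array. There were thus 4 arrays in all and no spread between mice. No difference below therefore has a test or a p-value, and a difference is given as the log2 ratio of 2 arrays. A gene is called higher or lower where that ratio reaches 1.5-fold, the size by which the study listed genes for cKO-CT over WT-CT, applied here to every comparison.

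Leucine, isoleucine and valine enter cells through shared carriers, lose their amino group to a transaminase and are then committed to breakdown by BCKDH in mitochondria. The leucine branch ends in acetyl-CoA and acetoacetate, the valine branch in propionyl-CoA, and the isoleucine branch in both acetyl-CoA and propionyl-CoA, which a biotin enzyme and a cobalamin enzyme carry on to the citric acid cycle. Adipocytes are known to use BCAA carbon for fatty acid synthesis, and adipose BCAA enzymes are known to be lowered in obesity.

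*Napepld* itself had log2 levels of 7.94 on the cKO-HFD array and 8.01 on the WT-HFD array, with 7.78 on the cKO-CT array and 8.31 on the WT-CT array. Its log2 ratio was -0.06 for cKO-HFD over WT-HFD and -0.53 for cKO-CT over WT-CT, both within 1.5-fold. The place of its probe set relative to the deleted part is not known here, so this level does not check the labels. The study itself could not detect NAPE-PLD protein in the white fat of cKO mice. By mRNA measurements it verified the deletion in adipose tissue on both diets, with no difference between genotypes in peritoneal macrophages. Of 10 adipocyte markers 9 were measured, all above background on every array, with log2 levels from 10.42 to 13.36. Background was taken as the 95th percentile of 1027 olfactory receptor (*Olfr*) genes, which lay between 5.28 and 5.50 on the 4 arrays. The 12 skeletal muscle markers had a median log2 level of 7.34 on cKO-HFD and 11.32 on WT-HFD, against 9.36 on cKO-CT and 9.46 on WT-CT. Of 12 pancreatic acinar markers 10 were measured, and 4, 5 and 5 of them were above background on cKO-HFD, WT-HFD and cKO-CT, against 9 on WT-CT. Their median log2 levels were 5.43, 5.58 and 5.26 on those arrays, against 6.825 on WT-CT. Their median log2 ratio was -1.63 for WT-HFD over WT-CT and -1.815 for cKO-CT over WT-CT. The 10 macrophage markers had medians of 8.37 on cKO-HFD and 8.71 on WT-HFD, with 8.33 on cKO-CT and 7.72 on WT-CT. The 9 brown and beige adipocyte markers had medians of 6.90 and 6.97 on cKO-HFD and WT-HFD, against 8.15 and 8.91 on cKO-CT and WT-CT. Markers of liver, mammary epithelium and keratinocytes were above background in 5 of 8, 2 to 3 of 8 and 1 to 2 of 4 genes measured. The part of these cell types in the BCAA values was not tested, and in whole tissue fewer cells of a type and less RNA per cell cannot be told apart.

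Most BCAA genes had lower levels on the HFD arrays than on the CT array of the same genotype, with more past 1.5-fold in WT. No member reached 1.5-fold between genotypes on the HFD, where few of all genes did. In cKO-HFD over cKO-CT, 1 of 29 members was lower (*Hibch*), where 2.17% of all genes were lower, and none was higher, where 1.82% of all genes were higher. The members' median log2 ratio was -0.22, against 0.02 over all genes, and 82.8% of members lay below 0, against 46.9% of all genes. Many of all genes are not above background, and over the 12486 that are on at least 1 array, the median in this comparison was -0.04 and 57.0% lay below 0. Of those 12486 genes, 394 were lower by 1.5-fold or more and 166 higher. In WT-HFD over WT-CT, 5 members were lower (*Bckdha*, *Hibch*, *Pcca*, *Pccb* and *Mmaa*), where 2.67% of all genes were lower, and 2 were higher (*Bcat1* and *Abat*), where 3.16% of all genes were higher. The median there was -0.25, against -0.004 over all genes, and 79.3% of members lay below 0, against 50.6% of all genes. Over the 12486 genes above background, the median was 0.01 and 47.9% lay below 0, with 440 lower by 1.5-fold or more and 550 higher.

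Between genotypes the calls were few, near the shares of all genes called, and do not set the members apart. In cKO-HFD over WT-HFD, no member was lower, where 2.11% of all genes were lower, and none was higher, where 1.04% of all genes were higher. The median log2 ratio there was 0.01, against 0.03 over all genes and 0.02 over those above background, and 14 of 29 members lay below 0. The share below 0 was 44.4% of all genes and 46.6% of those above background. In cKO-CT over WT-CT, no member was lower, where 1.52% of all genes were lower, and 1 was higher (*Abat*), where 1.64% of all genes were higher. The members' median log2 ratio was -0.10, against -0.01 over all genes and 0.05 over those above background, and 17 of 29 lay below 0. Here the share below 0 was 50.7% of all genes and 42.0% of those above background. After cyclic loess scaling between arrays the members' median was -0.19 and 6 members changed sign, so the sign of small ratios in this comparison is not settled. Comparisons that share an array, such as cKO-CT over WT-CT and WT-HFD over WT-CT, are not independent of each other.

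**Figure D1:**
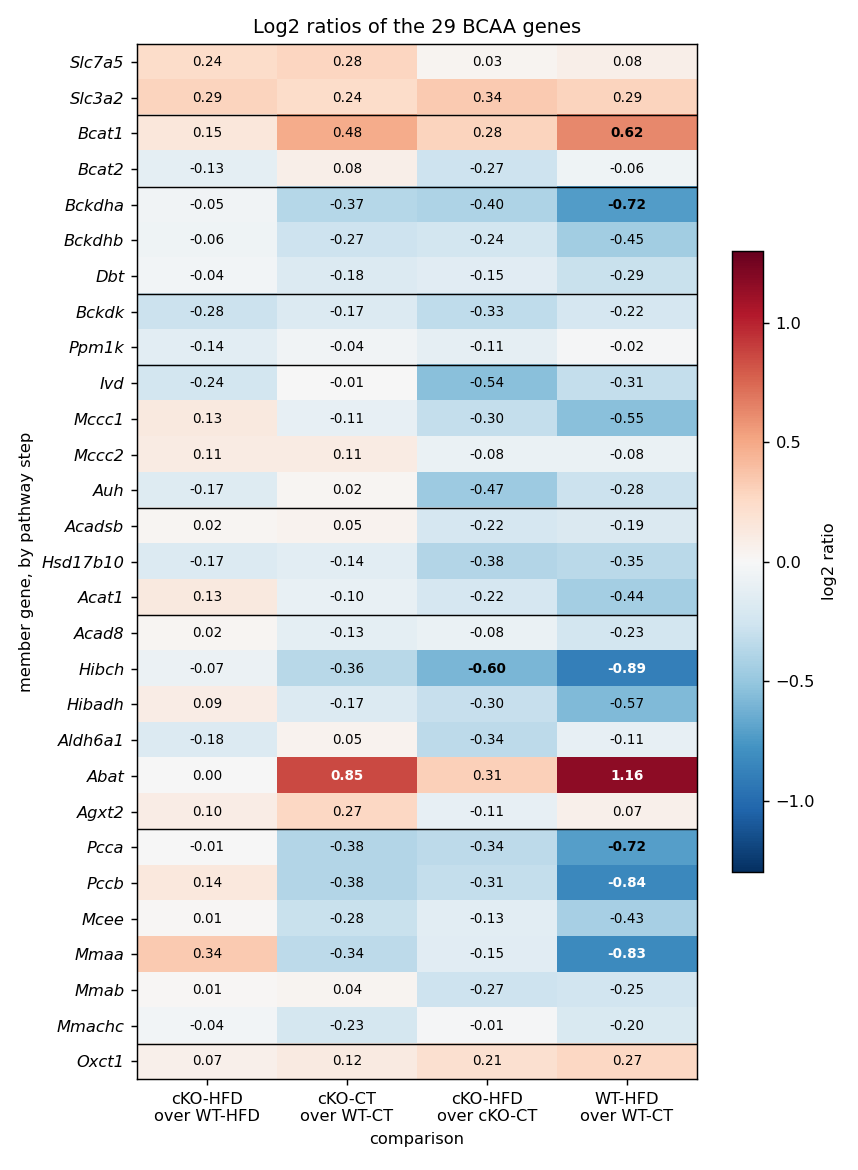
Log2 ratios of the 29 BCAA genes (rows, grouped by pathway step with black lines) in 4 comparisons (columns), with 1 array per group, blue for lower, red for higher, and bold print for 1.5-fold or more. The column of WT-HFD over WT-CT holds 5 members lower and 2 higher, and the column of cKO-HFD over WT-HFD holds none.

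The 29 members also differed in which array they stood lowest on. The lowest level was on cKO-HFD for 13 members, on WT-HFD for 10, on cKO-CT for none and on WT-CT for 6. The highest level was on cKO-HFD for 4 members, on WT-HFD for 1, on cKO-CT for 7 and on WT-CT for 17. The same counts were not taken over all genes, so they do not show a trait particular to the members. The highest minus the lowest log2 level had a median of 0.47 over the members, with a range of 0.16 (*Ppm1k*) to 1.16 (*Abat*), against a median of 0.32 over all genes. *Agxt2* lay below background on all 4 arrays and *Mmaa* on WT-HFD, while the other members were above it on every array.

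**Figure D2:**
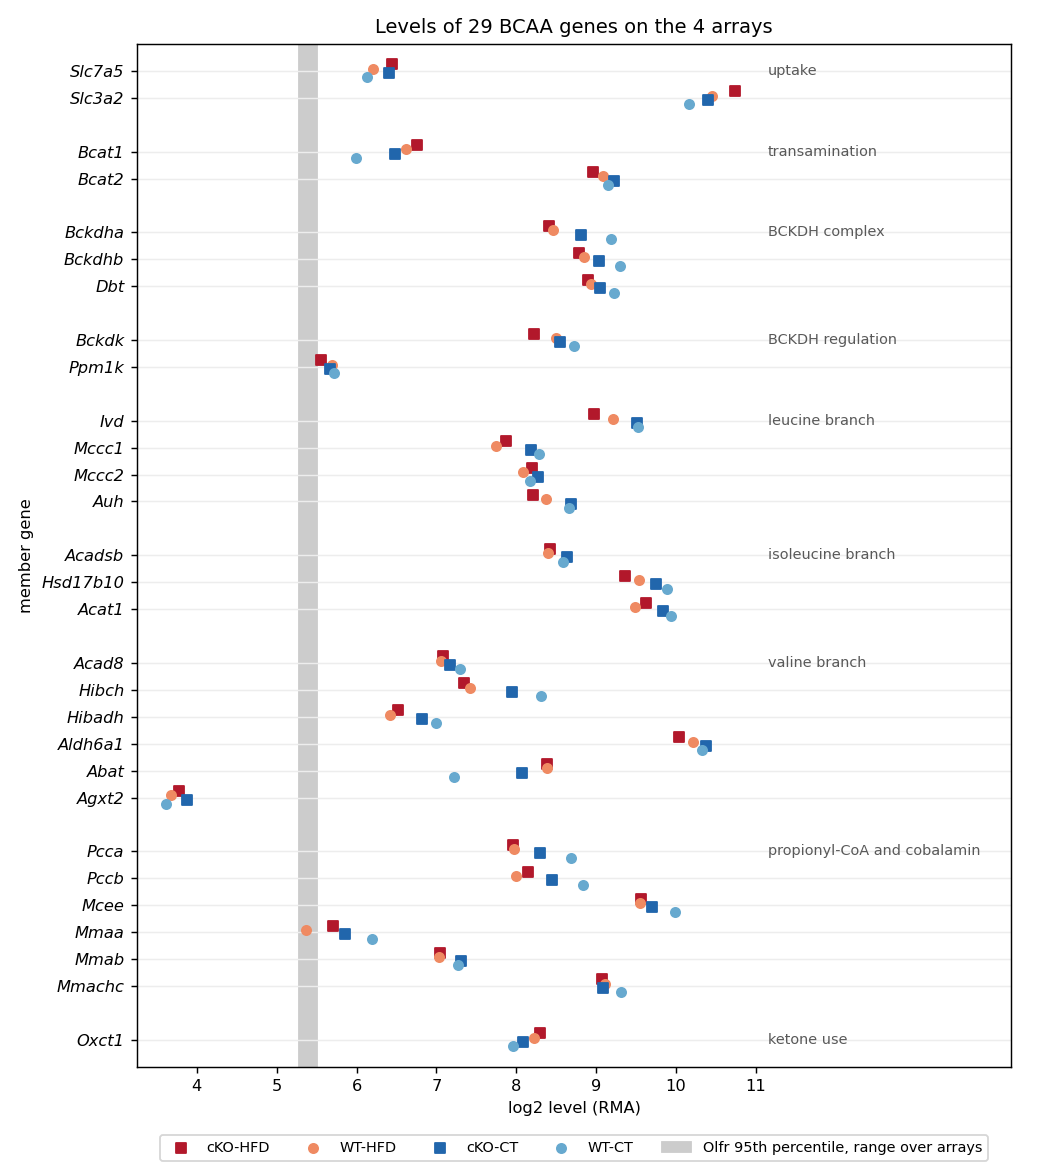
Log2 RMA level (horizontal axis) of each of the 29 BCAA genes (vertical axis, by pathway step) on the 4 arrays, with squares for cKO, circles for WT, red tones for HFD, blue tones for CT and a grey band for the *Olfr* background of 5.28 to 5.50. *Abat* lies lowest on WT-CT at 7.22, whereas *Hibch*, *Pcca* and *Pccb* lie highest there, at 8.30, 8.68 and 8.84, and levels are comparable between arrays but not between genes.

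The members that were lower in WT-HFD over WT-CT and above background on every array were *Bckdha*, *Hibch*, *Pcca* and *Pccb*, and the 250 bases before their RefSeq transcription start (GRCm38.p6) are shown because these 4 genes were lower in the same comparison. Each is written 5′ to 3′ on the strand of the gene. Capitals mark the nuclear receptor core motif AGGTCA, the NF-Y box CCAAT and the GC box GGGCGG, on either strand.
Bckdha, upstream 250 bases, chr7:25658762-25659011, minus strand: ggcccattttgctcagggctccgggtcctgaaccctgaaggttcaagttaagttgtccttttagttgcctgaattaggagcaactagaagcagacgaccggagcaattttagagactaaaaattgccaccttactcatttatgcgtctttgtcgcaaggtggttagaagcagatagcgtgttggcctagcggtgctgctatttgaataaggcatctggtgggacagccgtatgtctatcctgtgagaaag
Hibch, upstream 250 bases, chr1:52844788-52845037, plus strand: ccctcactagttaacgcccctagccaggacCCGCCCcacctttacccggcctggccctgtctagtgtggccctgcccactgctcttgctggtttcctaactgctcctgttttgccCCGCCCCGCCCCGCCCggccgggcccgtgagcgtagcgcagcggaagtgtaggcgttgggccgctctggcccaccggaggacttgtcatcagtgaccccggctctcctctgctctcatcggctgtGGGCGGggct
Pcca, upstream 250 bases, chr14:122484115-122484364, plus strand: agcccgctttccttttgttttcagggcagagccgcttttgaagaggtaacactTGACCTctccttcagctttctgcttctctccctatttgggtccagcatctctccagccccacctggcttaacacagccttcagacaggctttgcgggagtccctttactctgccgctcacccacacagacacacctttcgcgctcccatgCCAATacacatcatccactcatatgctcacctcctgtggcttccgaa
Pccb, upstream 250 bases, chr9:101034885-101035134, minus strand: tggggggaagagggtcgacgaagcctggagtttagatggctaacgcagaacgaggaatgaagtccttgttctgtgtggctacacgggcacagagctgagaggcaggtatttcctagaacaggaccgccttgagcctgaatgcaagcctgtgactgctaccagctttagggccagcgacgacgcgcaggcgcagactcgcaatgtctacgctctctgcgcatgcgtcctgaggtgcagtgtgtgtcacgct
The window of *Hibch* held 5 GC boxes, some overlapping, and neither of the other motifs. The window of *Pcca*, the first of 2 listed for this gene, held 1 AGGTCA and 1 NF-Y box. The windows of *Bckdha* and *Pccb* held none of these motifs, which says only that the letters are not in these windows. No motif was therefore common to the 4 windows. Over the 25 members with a window, GGGCGG occurred in 14 (56.0%), against 32.9% of 27025 genes, and CCAAT also occurred in 14 (56.0%), against 34.5% of all genes. AGGTCA occurred in 3 member windows (12.0%), against 13.8% of all genes, and its extended form AAGGTCA in none, against 4.05%. The E box CACGTG was in 1 (4.00%), against 6.05%, and TATAAA in 3 (12.0%), against 13.0%. The median GC content was 54.4% over the member windows and 52.0% over all windows, and the ratio of observed to expected CpG was 0.63 over the member windows and 0.38 over all windows.

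Among the uptake genes, both members had genotype ratios, cKO over WT, above 0 on each diet, without reaching 1.5-fold. *Slc7a5* encodes the light chain and *Slc3a2* the heavy chain of the large neutral amino acid exchanger that brings leucine into cells. Their log2 ratios were 0.24 and 0.29 for cKO-HFD over WT-HFD, and 0.28 and 0.24 for cKO-CT over WT-CT. The log2 level of *Slc3a2* was 10.74 on cKO-HFD and 10.45 on WT-HFD, with 10.40 on cKO-CT and 10.16 on WT-CT.

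The 2 transaminase genes had diet ratios of opposite sign, HFD over CT, in both genotypes. *Bcat1*, the cytosolic branched-chain aminotransferase, had log2 levels of 6.76 on cKO-HFD and 6.62 on WT-HFD, with 6.48 on cKO-CT and 5.995 on WT-CT. WT-CT was the low array, and *Bcat1* was 1.54-fold higher in WT-HFD than in WT-CT, just past the size counted. Its log2 ratio was 0.28 for cKO-HFD over cKO-CT and 0.48 for cKO-CT over WT-CT. *Bcat2*, the mitochondrial aminotransferase and the main one outside the brain, had log2 levels of 8.96 on cKO-HFD and 9.09 on WT-HFD, with 9.23 on cKO-CT and 9.15 on WT-CT. Its 4 ratios lay between -0.27 and 0.08, and they changed sign between comparisons.

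All 3 subunit genes of BCKDH that belong to the list had diet ratios below 0 in both genotypes, with *Bckdha* furthest from 0. *Bckdha*, the E1 alpha subunit, had log2 levels of 8.41 on cKO-HFD and 8.46 on WT-HFD, with 8.81 on cKO-CT and 9.18 on WT-CT. Its log2 ratio was -0.40 for cKO-HFD over cKO-CT, and it was 1.65-fold lower in WT-HFD than in WT-CT (-0.72). The 2 HFD arrays were 0.05 apart, while cKO-CT stood 0.37 below WT-CT. *Bckdhb*, the E1 beta subunit, had log2 levels of 8.79 on cKO-HFD and 8.85 on WT-HFD, with 9.03 on cKO-CT and 9.30 on WT-CT. Its diet ratio was -0.24 in cKO mice and -0.45 in WT mice, within 1.5-fold in both. *Dbt*, the E2 transacylase core, had log2 levels of 8.90 on cKO-HFD and 8.93 on WT-HFD, with 9.04 on cKO-CT and 9.22 on WT-CT. Its diet ratios were -0.15 in cKO and -0.29 in WT mice, so the E1 genes had diet ratios further from 0 than the E2 gene on these arrays. *Dld*, the E3 subunit that BCKDH shares with the pyruvate and oxoglutarate dehydrogenases, was taken from a separate list of shared enzymes. Its log2 level was 7.99 on cKO-HFD and 8.29 on WT-HFD, with 8.56 on cKO-CT and 9.12 on WT-CT, and its diet ratio was -0.57 in cKO and -0.83 in WT mice.

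Neither regulator of BCKDH reached 1.5-fold in any comparison. *Bckdk*, the kinase that switches the complex off, had log2 levels of 8.22 on cKO-HFD and 8.50 on WT-HFD, with 8.55 on cKO-CT and 8.72 on WT-CT. All 4 of its ratios were below 0, and the lowest was -0.33, for cKO-HFD over cKO-CT. *Ppm1k*, the phosphatase that switches it on, had log2 levels of 5.56 on cKO-HFD and 5.69 on WT-HFD, with 5.67 on cKO-CT and 5.71 on WT-CT. These lie close to the *Olfr* background, and the gene had the smallest range of the 29.

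In the leucine branch, all 4 members had diet ratios below 0 in both genotypes, and none reached 1.5-fold. Their diet ratios ranged between -0.54 and -0.08 in cKO mice and between -0.55 and -0.08 in WT mice. *Ivd*, isovaleryl-CoA dehydrogenase, came closest to that size in cKO mice, 1.46-fold lower in cKO-HFD than in cKO-CT. *Mccc1*, the biotin-carrying subunit of methylcrotonyl-CoA carboxylase, came closest in WT mice, 1.46-fold lower in WT-HFD than in WT-CT. *Mccc2*, the partner subunit of *Mccc1*, had a ratio of -0.08 in both genotypes, and *Auh*, the methylglutaconyl-CoA hydratase, had -0.47 in cKO and -0.28 in WT mice.

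In the isoleucine branch the 3 members also had diet ratios below 0 in both genotypes, again within 1.5-fold. They are *Acadsb*, the short and branched-chain acyl-CoA dehydrogenase, *Hsd17b10*, the methyl-hydroxybutyryl-CoA dehydrogenase, and *Acat1*, the mitochondrial acetoacetyl-CoA thiolase. Their diet ratios ranged between -0.38 and -0.22 in cKO mice and between -0.44 and -0.19 in WT mice. Between genotypes their ratios ranged between -0.17 and 0.13 on the HFD and between -0.14 and 0.05 on the CT diet.

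The valine branch held both the lowest and the highest diet ratio of the 29 members in WT mice. *Hibch* encodes the hydrolase that frees 3-hydroxyisobutyrate from coenzyme A. Its log2 level was 7.34 on cKO-HFD and 7.42 on WT-HFD, with 7.94 on cKO-CT and 8.30 on WT-CT, both HFD arrays below both CT arrays. *Hibch* was 1.51-fold lower in cKO-HFD than in cKO-CT (log2 ratio -0.60) and 1.85-fold lower in WT-HFD than in WT-CT (-0.89), and it was the one member past 1.5-fold on the HFD in both genotypes. The value in cKO mice was just past the size counted, and it was -0.55 after cyclic loess. *Hibadh*, the dehydrogenase of the same hydroxyisobutyrate, had diet ratios of -0.30 in cKO and -0.57 in WT mice as the mean of its 2 probe sets. One of these was below background on every array, and the other gave -0.77 for WT-HFD over WT-CT, past 1.5-fold. *Aldh6a1*, the methylmalonate semialdehyde dehydrogenase that yields propionyl-CoA, and *Acad8*, the isobutyryl-CoA dehydrogenase, had diet ratios between -0.34 and -0.08 in the 2 genotypes.

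*Abat* went the other way. Its product is the 4-aminobutyrate aminotransferase, which breaks down the transmitter GABA and also acts on an aminoisobutyrate linked to valine. The log2 level was 8.38 on cKO-HFD and 8.38 on WT-HFD, with 8.07 on cKO-CT and 7.22 on WT-CT, so WT-CT stood apart as the low array. The HFD arrays were level, and the log2 ratio was 0.31 for cKO-HFD over cKO-CT. *Abat* was 2.24-fold higher in WT-HFD than in WT-CT (log2 ratio 1.16) and 1.81-fold higher in cKO-CT than in WT-CT (0.85), and these comparisons share the WT-CT array. *Abat* also stands in the list of genes that the study picked on these arrays for cKO-CT over WT-CT. *Agxt2*, an aminotransferase known from liver and kidney that also acts on aminoisobutyrate, had log2 levels of 3.61 to 3.88, all below background, and gives no ratio to read.

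Downstream of propionyl-CoA, the 6 members all had diet ratios below 0 in both genotypes, with a median log2 ratio of -0.21 in cKO mice and -0.57 in WT mice. *Pcca* and *Pccb* encode the alpha and beta subunits of propionyl-CoA carboxylase. The log2 level of *Pcca* was 7.96 on cKO-HFD and 7.97 on WT-HFD, with 8.30 on cKO-CT and 8.68 on WT-CT. That of *Pccb* was 8.14 on cKO-HFD and 7.999 on WT-HFD, with 8.45 on cKO-CT and 8.84 on WT-CT. Both subunits thus stood highest on WT-CT and next on cKO-CT, and *Pcca* was 1.64-fold and *Pccb* 1.79-fold lower in WT-HFD than in WT-CT. In cKO-HFD over cKO-CT their ratios were -0.34 and -0.31, and in cKO-CT over WT-CT both were -0.38, within 1.5-fold. *Mmaa*, which loads and guards the cobalamin of methylmalonyl-CoA mutase, had log2 levels of 5.70 on cKO-HFD and 5.37 on WT-HFD, with 5.85 on cKO-CT and 6.19 on WT-CT. Since the WT-HFD value was below background, *Mmaa* was at least 1.71-fold lower in WT-HFD than in WT-CT, with the *Olfr* level of that array taken as the lowest that can be read. *Mcee*, the methylmalonyl-CoA epimerase, had diet ratios of -0.13 in cKO and -0.43 in WT mice. *Mmab*, the cobalamin adenosyltransferase, had -0.27 in cKO and -0.25 in WT mice, and *Mmachc*, which strips cobalamin of its upper ligand, had -0.01 in cKO and -0.20 in WT mice.

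*Oxct1*, the transferase that activates acetoacetate so that ketone bodies can be used, was the last member. Its log2 level was 8.29 on cKO-HFD and 8.23 on WT-HFD, with 8.08 on cKO-CT and 7.96 on WT-CT, and its diet ratios of 0.21 in cKO and 0.27 in WT mice were above 0. The members above 0 on the HFD in both genotypes were thus the 2 uptake genes, *Bcat1*, *Abat* and *Oxct1*, and apart from *Abat* and *Agxt2* the members from BCKDH to the cobalamin step were all below 0 in both genotypes.

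The diet comparison in cKO mice and that in WT mice use different arrays and can be set side by side. Of 29 members, 23 were below 0 in both genotypes, 5 were above 0 in both and 1, *Agxt2*, which is below background, went opposite ways. The ratio was nearer to 0 in cKO than in WT mice for 18 of 29. Among these were all 7 members past 1.5-fold in WT mice. They had been chosen for their WT value, so a smaller value in cKO mice is no finding of its own. Over all genes, too, more passed 1.5-fold in WT-HFD over WT-CT (2.67% lower, 3.16% higher) than in cKO-HFD over cKO-CT (2.17% lower, 1.82% higher). The sign counts and the 18 of 29 were not set against a count over all genes. *Ivd*, *Auh* and *Aldh6a1* were among the members further from 0 in cKO mice, at -0.54, -0.47 and -0.34, against -0.31, -0.28 and -0.11 in WT mice. With 1 array per group, no difference between the genotypes in their diet ratio was tested.

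**Figure D3:**
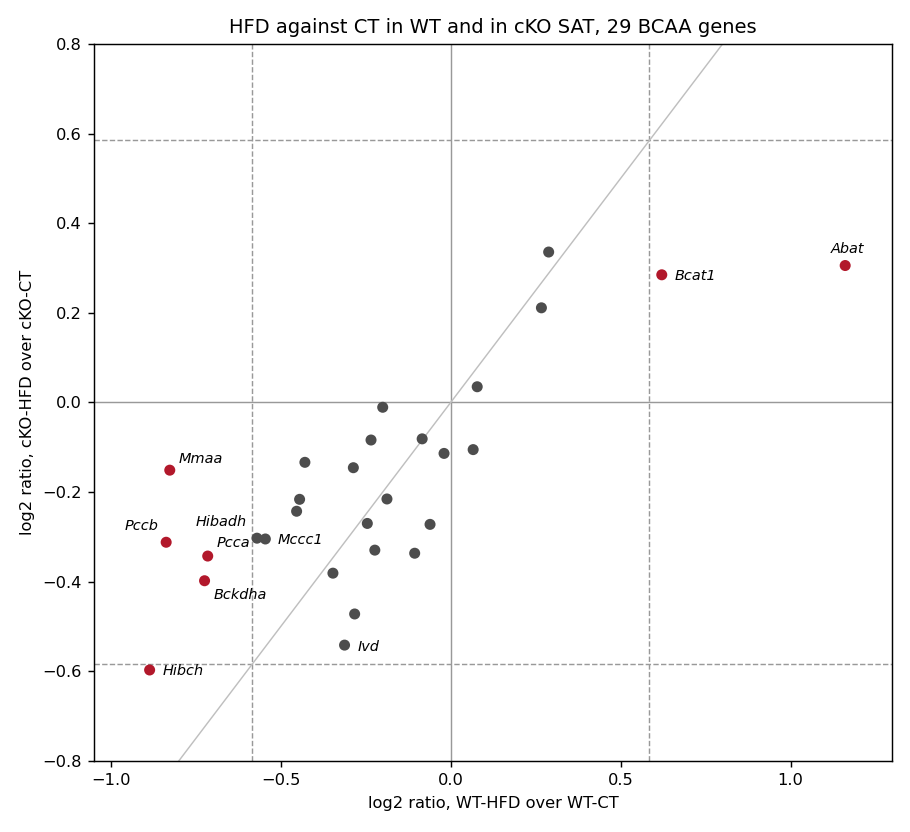
Log2 ratio of HFD over CT in cKO mice (vertical axis) against that in WT mice (horizontal axis), with 1 point for each of the 29 BCAA genes, dashed lines at 1.5-fold, a grey line of equal ratios and red points for members past 1.5-fold in either genotype. *Hibch* is past 1.5-fold in both, at -0.60 in cKO and -0.89 in WT mice, and *Abat* lies at 0.31 in cKO and 1.16 in WT mice.

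The genotype comparisons on the 2 diets also use different arrays. On the HFD the ratios of the 29 members, cKO-HFD over WT-HFD, ranged between -0.28 (*Bckdk*) and 0.34 (*Mmaa*, below background on WT-HFD). On the CT diet, cKO-CT over WT-CT, they ranged between -0.38 (*Pccb*) and 0.85 (*Abat*). Signs were opposite for 11 of 29 members, both below 0 for 10 and both above 0 for 8. These sign counts were not taken over all genes. In cKO-HFD over WT-HFD the 12 skeletal muscle markers were all lower, with a median of -3.95, and *Myh4*, a fast myosin, was 22.0-fold lower. Skeletal muscle also expresses many of the BCAA genes, and its part in their levels was not tested.

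Other genes of the pathway were read from lists made beside the members. Of 9 further amino acid carriers, none was higher and 1 lower in cKO-HFD over cKO-CT, and 1 was higher and none lower in WT-HFD over WT-CT. For these and the list counts below, 2.17% of all genes were lower and 1.82% higher in cKO-HFD over cKO-CT. In WT-HFD over WT-CT 2.67% of all genes were lower and 3.16% higher. *Slc7a8*, a light chain that also pairs with the product of *Slc3a2*, had log2 levels of 8.32 on cKO-HFD and 8.35 on WT-HFD, with 7.93 on cKO-CT and 6.68 on WT-CT. It was 3.20-fold higher in WT-HFD than in WT-CT and 2.38-fold higher in cKO-CT than in WT-CT, with WT-CT again the low array of both. *Slc43a1*, a carrier of large neutral amino acids, was lowest on cKO-HFD at 6.88, against 7.80 on WT-HFD, 8.14 on cKO-CT and 8.10 on WT-CT. *Slc25a44*, the mitochondrial carrier of BCAA, had diet ratios of -0.42 in cKO and -0.33 in WT mice.

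Of 15 enzymes that BCAA breakdown shares with fatty acid oxidation and other routes, 13 were measured, and 4 were lower in cKO-HFD over cKO-CT and 7 in WT-HFD over WT-CT, with none higher in either. *Hadhb*, the thiolase subunit of the trifunctional protein, had diet ratios of -0.95 in cKO and -1.67 in WT mice, and *Hadha*, its partner, had -0.78 in cKO and -1.43 in WT mice. *Ehhadh*, the peroxisomal bifunctional enzyme, had -0.97 in cKO and -1.20 in WT mice, and *Acaa2*, a mitochondrial thiolase, had -0.63 in cKO and -1.07 in WT mice. *Hadhb*, *Hadha* and *Acaa2* also stand in the fatty acid oxidation list below, so their ratios are not particular to BCAA breakdown.

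Of 11 genes of cobalamin handling and of the mutase step, 1 was lower in cKO-HFD over cKO-CT (*Suclg2*) and 3 in WT-HFD over WT-CT, and none was higher. All 3 encode subunits of succinyl-CoA synthetase, the citric acid cycle enzyme after the mutase. *Sucla2* had diet ratios of -0.46 in cKO and -0.93 in WT mice, *Suclg1* had -0.45 in cKO and -0.90 in WT mice, and *Suclg2* had -0.65 in both. *Mmut*, the mutase itself, had -0.23 in cKO and -0.44 in WT mice. Of 7 further ketone body genes 5 were measured. *Aacs*, the cytosolic acetoacetyl-CoA synthetase, had diet ratios of -0.62 in cKO and -1.25 in WT mice. *Slc16a1*, a monocarboxylate carrier, had -0.28 in cKO and -1.09 in WT mice. *Hmgcs1*, the cytosolic HMG-CoA synthase, had 0.72 in cKO and 0.22 in WT mice.

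Of 9 regulators known to act on BCAA or mitochondrial genes, or to sense amino acids, none was higher in either diet comparison. In cKO-HFD over cKO-CT 3 were lower (*Ppara*, *Mlxipl* and *Srebf1*), where 2.17% of all genes were lower. In WT-HFD over WT-CT these and *Ppargc1a* were lower, 4 in all, where 2.67% of all genes were lower. *Ppara*, a nuclear receptor of fatty acid oxidation genes, had log2 levels of 6.31 on cKO-HFD and 6.55 on WT-HFD, with 7.59 on cKO-CT and 8.50 on WT-CT. It was 2.43-fold lower in cKO-HFD than in cKO-CT and 3.87-fold lower in WT-HFD than in WT-CT. *Mlxipl*, the carbohydrate response factor ChREBP, had diet ratios of -0.82 in cKO and -1.34 in WT mice. *Ppargc1a*, a coactivator of mitochondrial genes, had -0.55 in cKO mice, within 1.5-fold, and -0.99 in WT mice. *Srebf1*, which also stands in the lipogenesis list, had -0.67 in cKO mice and -0.59 in WT mice, the latter just past the size counted. *Castor1*, an arginine sensor, was higher in cKO-CT than in WT-CT at 0.71. *Klf15*, a factor known to act on BCAA genes in muscle and liver, had -0.34 in cKO and -0.19 in WT mice.

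Other metabolic lists were read in the same comparisons. In cKO-HFD over cKO-CT the median log2 ratio was -0.22 for the 29 BCAA genes, -0.31 for 18 fatty acid oxidation genes, -0.46 for 17 citric acid cycle genes, -0.51 for 20 lipogenesis genes and -0.19 for 22 genes listed as other amino acid enzymes. The number lower there was 1 for BCAA, 5 for fatty acid oxidation, 3 for the citric acid cycle, 10 for lipogenesis and 0 for other amino acid enzymes. Over all genes 2.17% were lower. In WT-HFD over WT-CT the medians were -0.25 for BCAA, -0.79 for fatty acid oxidation, -0.85 for the citric acid cycle, -1.14 for lipogenesis and -0.08 for other amino acid enzymes. The number lower was 5 for BCAA, 11 for fatty acid oxidation, 14 for the citric acid cycle, 16 for lipogenesis and 3 for other amino acid enzymes. Over all genes 2.67% were lower. In both genotypes the BCAA median thus lay above those of the 3 lipid and energy lists and below that of the other amino acid enzymes. *Elovl6*, a fatty acid elongase, had the lowest ratios of the named lipogenesis genes, with diet ratios of -3.80 in cKO and -5.05 in WT mice. The genes furthest from 0 in the last list were *Dlat*, which had -0.47 in cKO and -1.25 in WT mice, and *Got1*, the cytosolic aspartate aminotransferase. *Dlat* encodes a subunit of pyruvate dehydrogenase and is not an amino acid enzyme, although the list held it.

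Between genotypes the lists were ordered in another way. In cKO-HFD over WT-HFD the median was 0.01 for BCAA, 0.09 for fatty acid oxidation, -0.03 for the citric acid cycle, 0.26 for lipogenesis and -0.01 for other amino acid enzymes. *Got1* had a ratio of -1.18 in this pair, with log2 levels of 6.80 on cKO-HFD and 7.98 on WT-HFD, and *Got2*, the mitochondrial form, had -0.89. Both are also expressed in skeletal muscle, whose markers were lower on the same array, and the part of muscle in these 2 ratios was not tested. In cKO-CT over WT-CT the median was -0.10 for BCAA, -0.37 for fatty acid oxidation, -0.40 for the citric acid cycle, -0.39 for lipogenesis and -0.11 for other amino acid enzymes. Some genes of these lists, such as *Hadha*, also stand in the further pathway lists above. The medians describe these arrays with no test.

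**Figure D4:**
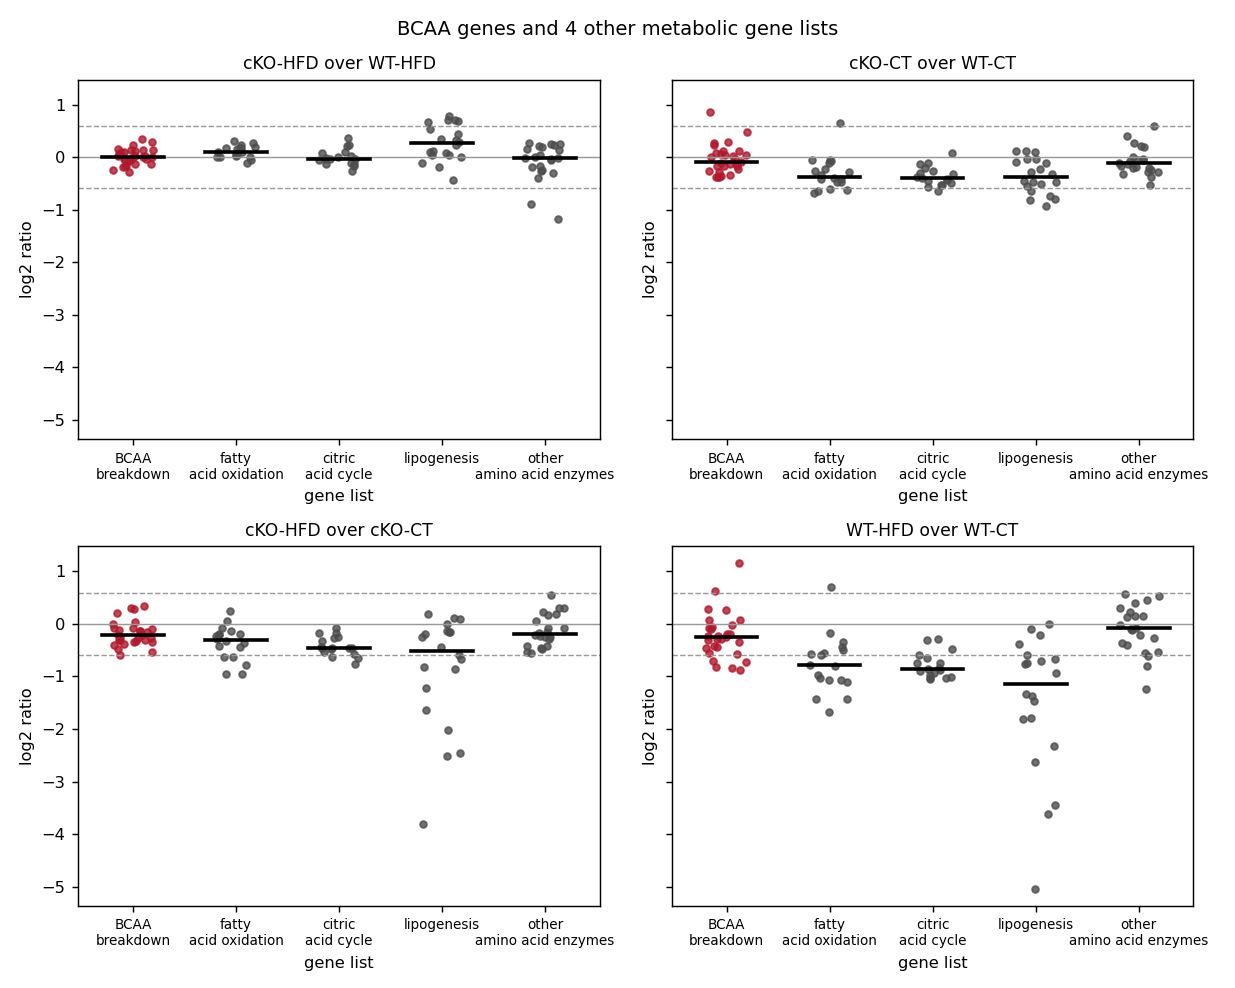
Log2 ratio (vertical axis) of each gene of the BCAA list (red) and of 4 other metabolic lists (grey) in 4 comparisons, 1 panel each, with black bars for medians and dashed lines at 1.5-fold. In WT-HFD over WT-CT the BCAA median lies at -0.25, above those of fatty acid oxidation at -0.79, the citric acid cycle at -0.85 and lipogenesis at -1.14.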

How the data were processed

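The 4 arrays were Affymetrix MoGene 1.0 ST. For each probe set the authors deposited a log2 level computed by RMA, with the RMA-Sketch procedure of the APT suite per the study's methods and Affymetrix Expression Console named in the processing notes. RMA corrects background, normalizes quantiles across arrays and summarises probes, so a shift common to most genes would not be seen. Detection P values played no part here. Of 35556 probe sets, 21789 had 1 gene name in the platform annotation, which can be old, 1621 had several and 12146 none. Probe sets naming only that gene were averaged to give its level. Groups came from the labels. Log2 ratios were counted at 1.5-fold, with no test, since each group had 1 array, and the number of arrays limits the precision. The members and lists were chosen with earlier results of these data known. Of 224 listed symbols 209 were measured. Members past 1.5-fold in any comparison, both transaminases and the BCKDH genes were named with all levels. From the other lists a rule picked the genes with the largest ratios past 1.5-fold, up to 4 for pathway lists, 2 for comparison lists and 3 for markers. Those picked from the pathway lists are named in the text, but only some from the comparison lists. Of those picked from the marker lists, only the skeletal muscle genes are named. *Dld*, *Mmut*, *Klf15*, *Slc25a44*, *Got2*, *Srebf1*, *Myh1*, *Myh2* and *Myh7* were named after their values were seen. So were the members other than those of the rule. Alternatives were the highest probe set, cyclic loess (limma 3.58.1 in R 4.3.3, span 0.7, 3 iterations), median centring, only genes above the *Olfr* level on at least 1 array, and a size of 2-fold. Promoters came from RefSeq (GRCm38.p6), with 250 bases upstream and, for the 7 members with several windows, the first listed. Counting steps used Python 3.11.15 with pandas 2.3.3 and were tested on simulated data.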

Additional observations from a re-analysis of the deposited data

Results flagged for a closer look

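No BCAA gene differed between groups in the way searched for here, which was a change past 1.5-fold in opposite directions under the same contrast, leaving out ratios of 2 arrays on which the gene was below background. The skeletal muscle markers named from their list did, and so did the median of that list. On the HFD against CT, *Myh4* had a log2 ratio of -2.90 in cKO mice and 1.80 in WT mice, a difference of -4.70. *Tnnc2*, a troponin of fast muscle, had -2.27 in cKO and 1.83 in WT mice, a difference of -4.10, and *Pvalb*, a calcium buffer of fast muscle, had -2.14 in cKO and 1.89 in WT mice, a difference of -4.03. The median of the 12 muscle markers was -2.05 in cKO mice and 1.70 in WT mice, a difference of -3.75. Not all of the 12 did so. *Myh1* had -0.52 in cKO and 0.48 in WT mice, and *Myh2* had -0.43 and 0.34, all within 1.5-fold. *Myh7* went the other way, at 0.53 in cKO and -0.01 in WT mice. With 1 array per group none of these differences was tested.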

How the results depend on the processing

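No paired analysis was possible because each group had 1 array, and for the same reason no replicate could be left out. In place of a replicate spread, a ratio or median was taken as moved when it changed by more than the robust spread of ratios at its level, or of list medians. A count was taken as moved when it changed by more than 1.5-fold, or to or from 0. At a size of 2-fold, no member was lower in WT-HFD over WT-CT, against 5 at 1.5-fold, and 1 was higher, against 2. No member was higher in cKO-CT over WT-CT, against 1, and none was lower in cKO-HFD over cKO-CT, against 1 (*Hibch*). Shares of all genes at 2-fold were not taken. After cyclic loess the count in cKO-HFD over cKO-CT was also 0, and the median in cKO-CT over WT-CT was -0.19, against -0.10. With the highest probe set, *Hibadh* was lower in WT-HFD over WT-CT at -0.77 and had 0.31 for cKO-HFD over WT-HFD, against 0.09. Under the alternatives, 50 other counts and medians of the 29 members did not move in this sense, nor did 347 ratios of single members. *Hibadh* above was the one exception, and no called value changed sign. Many of these values had little room to move. For the 28 members with 1 probe set, the highest probe set repeats the main ratio. Median centring moved no member's ratio by more than 0.03, and the *Olfr* filter drops only *Agxt2*. The tallies therefore do not measure how firm the values are. Cyclic loess changed the sign of 6 members in cKO-CT over WT-CT, all with small ratios. *Agxt2* and, on WT-HFD, *Mmaa* were too near background for the size of their ratios to be read.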
